A study of Drosophila melanogaster with 6 samples.

Results

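Genes by which Drosophila myoblasts recognise each other and fuse were followed in cells sorted from embryos that carried the TinD-GFP reporter. A list of 10 genes was drawn up by name, with earlier results of these data known. It held the transcription factor gene lmd, the receptor genes kirre, rst, sns and hbs, the intracellular fusion genes rols, mbc, blow and Vrp1, and the adhesion gene Con. Probe sets whose platform gene symbol was exactly one of these names were taken, which gave 16 probe sets for 9 genes out of 10844 genes named on the array. mbc is not analysed here. Where a gene had several probe sets, the brightest by its mean over the 6 arrays stands for it, and the others are given as well.

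All arrays came from TinD-GFP embryos at late stage 11 to early stage 12 of development. GFP-positive cells (3 arrays) and GFP-negative cells (3 arrays) were separated by flow cytometry from dissociated embryos of the same genotype, and total RNA was hybridised to Affymetrix Drosophila arrays. The labels describe the reporter as targeting cardiac mesoderm that expresses Tinman, so the GFP-negative cells hold the rest of the embryo, other mesoderm included. The labels do not say whether replicates came from separate collections or sorts, so the p-values reflect the spread among these arrays alone, and that spread may be technical.

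Somatic muscles of the fly embryo form from founder cells, which carry the identity of each muscle, and fusion-competent myoblasts, which fuse with them. Recognition runs through immunoglobulin receptors: Kirre and Rst act in founder cells, Sns and Hbs in fusion-competent myoblasts. Engaged receptors recruit adaptors and actin regulators that build a protrusion from the fusion-competent myoblast and open the fusion pore. The fusion-competent state itself depends on Lmd, and muscle cells of the gut wall use several of the same genes.

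The fusion genes were higher in GFP-positive cells. Of the 9 measured genes, 7 rose (lmd, rst, hbs, rols, blow, Vrp1 and Con), 0 fell, and kirre and sns did not pass the test. A gene rose or fell where limma, with a prior variance that follows the mean level, gave a Benjamini-Hochberg adjusted p under 0.05 over all 13966 tested probe sets. By that rule 1.5% of the 10844 genes rose and 0.968% fell, and among the 7246 genes with a mean above the background level 2.22% rose and 1.42% fell. The background level, a log2 signal of 2.44, is the highest mean of any control probe set for another organism, those for labelled bacterial transcripts left out. All 9 genes had a mean above it. In 8 of the 9 genes every GFP-positive array lay above every GFP-negative array, as in 9.28% of all genes and 11.5% of those above background. The median log2 difference of the 9 genes, GFP-positive minus GFP-negative, was 0.95, against -0.02 over all genes and -0.03 over genes above background. In sorted populations of many cells, more cells of a type and more RNA per cell cannot be told apart.

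**Figure D1:**
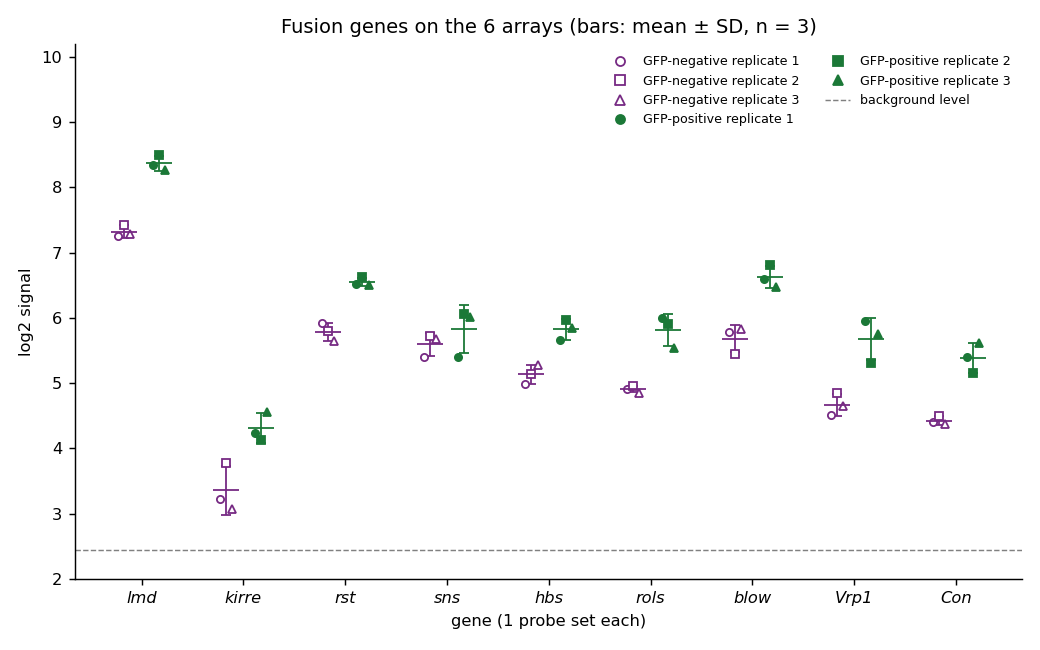
Log2 signal (y axis) of the 9 fusion genes (x axis, 1 probe set each) on 3 GFP-negative arrays (open purple) and 3 GFP-positive arrays (filled green), with bars for mean ± SD and a dashed line at the background level of 2.44. The groups are apart in every gene but sns, and the gap is widest for lmd.

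The calls depended on the number of arrays. lmd passed whichever array was left out, with an adjusted p of at most 0.00755. rst passed in all such fits too, but barely without GFP-positive replicate 2 (adjusted p = 0.0498). blow passed in 5 of 6 such fits, failing without GFP-positive replicate 2 (adjusted p = 0.055). rols, Vrp1 and Con each passed in 1 of 6, and hbs in none, with adjusted p-values from 0.063 to 0.146. With 1 prior variance shared by every probe set limma called 0 of 13966, with 1482 at an unadjusted p under 0.05. That such a fit called none was known when the reported fit was chosen.

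lmd encodes a zinc finger transcription factor related to the Gli proteins and specifies fusion-competent myoblasts. Its log2 signal was 8.35, 8.50 and 8.27 in GFP-positive replicates 1 to 3 and 7.25, 7.43 and 7.29 in GFP-negative replicates 1 to 3. The lowest GFP-positive array lay 0.84 above the highest GFP-negative one, and the values of each group lay within 0.23 and 0.18 of each other. The difference was 1.05 ± 0.08 (log2, SE, n = 3 per group), a 2.07-fold rise with a 95% interval of 1.82 to 2.35 (limma adjusted p = 6.7e-04). By p-value lmd ranked 12 among the 13966 probe sets, and by size of rise 144 among the 7246 genes above background. In all, 3 genes of the related Gli and Zic zinc finger families were measured and none passed. The difference was 0.25 ± 0.09 (adjusted p = 0.234) for ci, the Hedgehog pathway effector, -0.19 ± 0.24 (adjusted p = 0.797) for opa and 1.91 ± 0.45 (adjusted p = 0.068) for sug. In sug the GFP-negative arrays spread widely, at 2.43, 4.52 and 3.71, against 5.61, 5.34 and 5.44 in GFP-positive cells.

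The founder cell receptors kirre and rst act redundantly in attracting fusion-competent myoblasts. rst had a log2 signal of 6.53, 6.63 and 6.51 in GFP-positive and 5.92, 5.81 and 5.64 in GFP-negative replicates 1 to 3. All GFP-positive values lay within 0.11 of each other and lay at least 0.59 above the GFP-negative ones. The rise was 0.76 ± 0.10 (log2, SE), or 1.70-fold with an interval of 1.45 to 1.99 (limma adjusted p = 0.0075).

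kirre read 4.24, 4.13 and 4.56 in GFP-positive and 3.22, 3.78 and 3.07 in GFP-negative replicates. Its groups did not overlap, by a gap of 0.35, but GFP-negative replicate 2 stood above its 2 companions. The difference of 0.96 ± 0.30 was close to that of Con, and its 95% interval ran from 0.27 to 1.65, yet it did not pass (limma adjusted p = 0.164). It passed in 0 of 15 alternative settings. On GFP-negative replicates 1 and 3 kirre lay below the brightest of the controls used for the background level, which read 3.55 and 3.41 there. The annotated span of rst lies inside that of kirre, and whether probes of either gene also bind transcripts of the other is not analysed here.

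In fusion-competent myoblasts the partner receptors are Sns, which the fusion of most somatic muscles requires, and its paralogue Hbs. hbs read 5.66, 5.97 and 5.84 in GFP-positive and 4.99, 5.14 and 5.28 in GFP-negative replicates. The groups were apart, with spreads of 0.16 and 0.15 (SD). Its rise of 0.69 ± 0.13 was 1.61-fold, with an interval of 1.30 to 1.99 (limma adjusted p = 0.037), the smallest of the 7 rises.

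sns was the exception among the 9 genes. Its chosen probe set, the only one of 6 with a mean above background, read 5.40, 6.06 and 6.01 in GFP-positive and 5.39, 5.72 and 5.68 in GFP-negative replicates. GFP-positive replicate 1 fell among the GFP-negative arrays, so the groups overlapped. The difference was 0.23 ± 0.19 (adjusted p = 0.661), and its 95% interval, -0.20 to 0.65, holds 0 as well as rises close to that of hbs. Without GFP-positive replicate 1 it was 0.44 (adjusted p = 0.196), and without GFP-positive replicate 2 it was 0.11.

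The other 5 probe sets of sns had means over all arrays between 0.09 and 1.78, below the background level, so they give no fold. Among them, set 2 read 2.47, 1.95 and 2.83 in GFP-positive and 0.92, 0.85 and 1.66 in GFP-negative replicates (adjusted p = 0.334). Set 3 stood at 3.62 on GFP-positive replicate 3 and between 0.61 and 0.74 on the other 5 arrays. The mean of all 6 probe sets gave a difference of 0.53, carried mostly by these dim sets, since the chosen set differed by 0.23. Which exons each set covers is not analysed here.

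**Figure D2:**
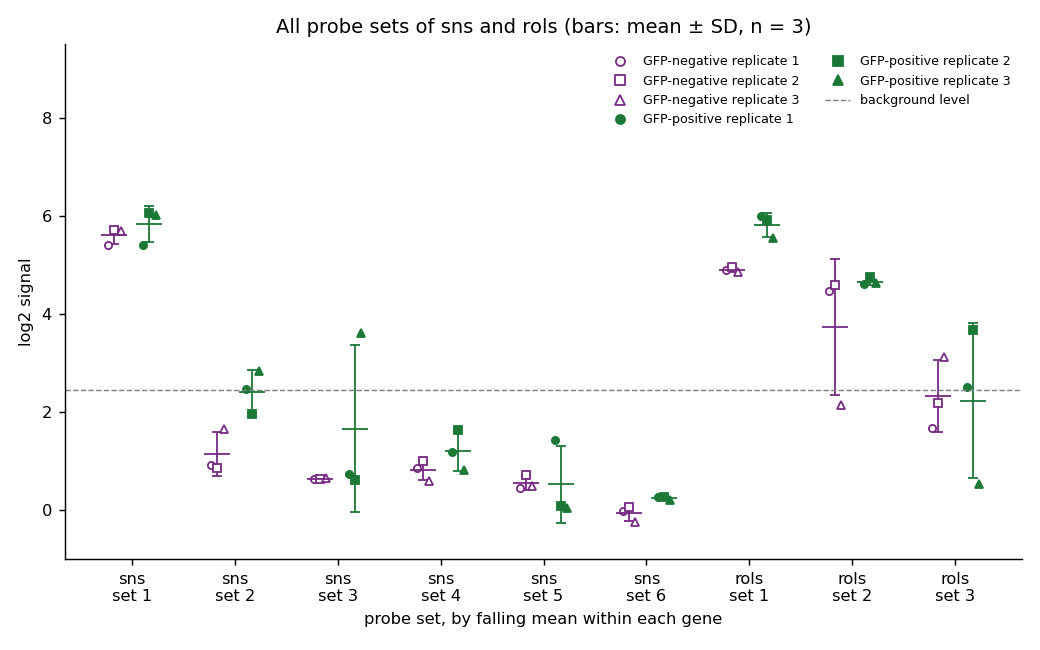
Log2 signal (y axis) of the 6 probe sets of sns and the 3 of rols (x axis, numbered by falling mean within each gene) on 3 GFP-negative (open purple) and 3 GFP-positive arrays (filled green), with mean ± SD and the background level of 2.44 dashed. One sns set and the first 2 of rols lie above that level on average.

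Inside founder cells rols encodes an adaptor that binds the Kirre tail and is needed for repeated rounds of fusion. Its chosen probe set read 5.99, 5.91 and 5.54 in GFP-positive and 4.90, 4.95 and 4.86 in GFP-negative replicates, with GFP-positive replicate 3 the lowest of its group but 0.59 above the nearest GFP-negative array. The rise was 0.91 ± 0.15, or 1.88-fold with an interval of 1.49 to 2.36 (limma adjusted p = 0.018). Its other probe sets did not show this. Set 2 read 4.61, 4.75 and 4.62 against 4.46, 4.60 and 2.13 (adjusted p = 0.540), so its difference of 0.93 rested on GFP-negative replicate 3. Set 3 had a mean below background and differed by -0.09 ± 0.84 (adjusted p = 0.977). With the mean of the 3 sets rols differed by 0.58 and did not pass (adjusted p = 0.519).

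blow and Vrp1 act on the fusion-competent side, where they regulate the actin focus at the contact with the founder cell. blow read 6.60, 6.82 and 6.48 in GFP-positive and 5.78, 5.44 and 5.82 in GFP-negative replicates. The groups were apart, and GFP-negative replicate 2 was the lowest array. Its rise was 0.95 ± 0.13, or 1.93-fold with an interval of 1.56 to 2.39 (limma adjusted p = 0.010).

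Vrp1, which encodes the WASP-interacting protein also called Solitary, read 5.95, 5.31 and 5.76 in GFP-positive and 4.51, 4.84 and 4.65 in GFP-negative replicates. It had the widest GFP-positive spread of the genes that rose (SD 0.33), with GFP-positive replicate 2 nearest to the GFP-negative group. The rise was 1.01 ± 0.19, or 2.01-fold with an interval of 1.50 to 2.70 (limma adjusted p = 0.029). With replicate number as a block it did not pass (adjusted p = 0.053).

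Con encodes Connectin, a leucine-rich repeat protein that mediates adhesion between like cells and marks a subset of muscles and the nerves that reach them. It read 5.41, 5.15 and 5.61 in GFP-positive and 4.40, 4.50 and 4.37 in GFP-negative replicates. The GFP-negative arrays agreed within 0.13 while the GFP-positive arrays spread over 0.46. The rise was 0.97 ± 0.17, or 1.96-fold with an interval of 1.51 to 2.54 (limma adjusted p = 0.021).

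The 9 genes did not rank the arrays alike within a group. GFP-positive replicate 2 was the highest of its group in 5 genes and the lowest in 3, and GFP-positive replicate 3 was the highest in 2 and the lowest in 4. Among GFP-negative arrays replicate 2 was the highest in 6 genes. After each gene was centred on its own mean, the median over the 9 genes was 0.44, 0.45 and 0.36 on the GFP-positive and -0.49, -0.37 and -0.52 on the GFP-negative arrays. The median log2 difference of the 9 genes was 0.86 to 0.93 with any 1 array left out.

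The other genes of the fusion pathway were taken from a list of 38, of which 25 were measured, all with a mean above background. Of these 8 rose, 0 fell and 17 did not pass, and the median log2 difference was 0.28. Calls differed in number by role. All 4 measured genes of membrane and structure rose, as did 2 of 3 cortical tension genes and 2 of 8 signalling genes, and 0 of 10 actin nucleation genes passed in either direction. Among all genes above background 2.22% rose and 1.42% fell, so 0 calls in 10 genes is close to that share. The difference between roles was not tested.

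Among membrane and structural genes sls, the titin-like protein that founder cells enrich at the fusion site, rose by 1.15 ± 0.15 (adjusted p = 0.0065). sing, the MARVEL-domain protein Singles bar needed for the step before pore formation, read 7.34, 7.21 and 7.26 in GFP-positive and 6.47, 6.46 and 6.52 in GFP-negative replicates. Its groups lay 0.69 apart, and it rose by 0.79 ± 0.07 (adjusted p = 0.0015). Swip-1, an actin-associated EF-hand protein, rose by 0.74 ± 0.12 (adjusted p = 0.020), and CadN, the N-cadherin, by 0.63 ± 0.07 (adjusted p = 0.0032).

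Of the cortical tension genes, the measured beta-type spectrin genes rose: kst, which encodes the heavy beta spectrin, by 0.90 ± 0.08 (adjusted p = 0.0012) and beta-Spec by 0.49 ± 0.06 (adjusted p = 0.0075). Among signalling genes, mib2, a ubiquitin ligase that maintains muscle integrity, rose by 0.47 ± 0.08 (adjusted p = 0.026). siz, the Arf exchange factor also called Loner, rose by 0.37 ± 0.07 (adjusted p = 0.024).

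The actin nucleation group holds subunits of the Arp2/3 complex, members of the SCAR complex and the formin dia. Its median log2 difference was -0.0007, with 5 genes higher and 5 lower. SCAR and Arpc1 had the largest differences, both 0.28, with SE of 0.11 and 0.09 (adjusted p = 0.287 and 0.161). Arpc4, singled out after its values were seen, lay at the other end with -0.27 ± 0.08 (adjusted p = 0.156), its 3 GFP-positive arrays all below the GFP-negative ones. beta-Spec, kst, sing, CadN and sls passed whichever array was left out. siz and Swip-1 passed in 1 of 6 such fits, and mib2 in none.

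**Figure D3:**
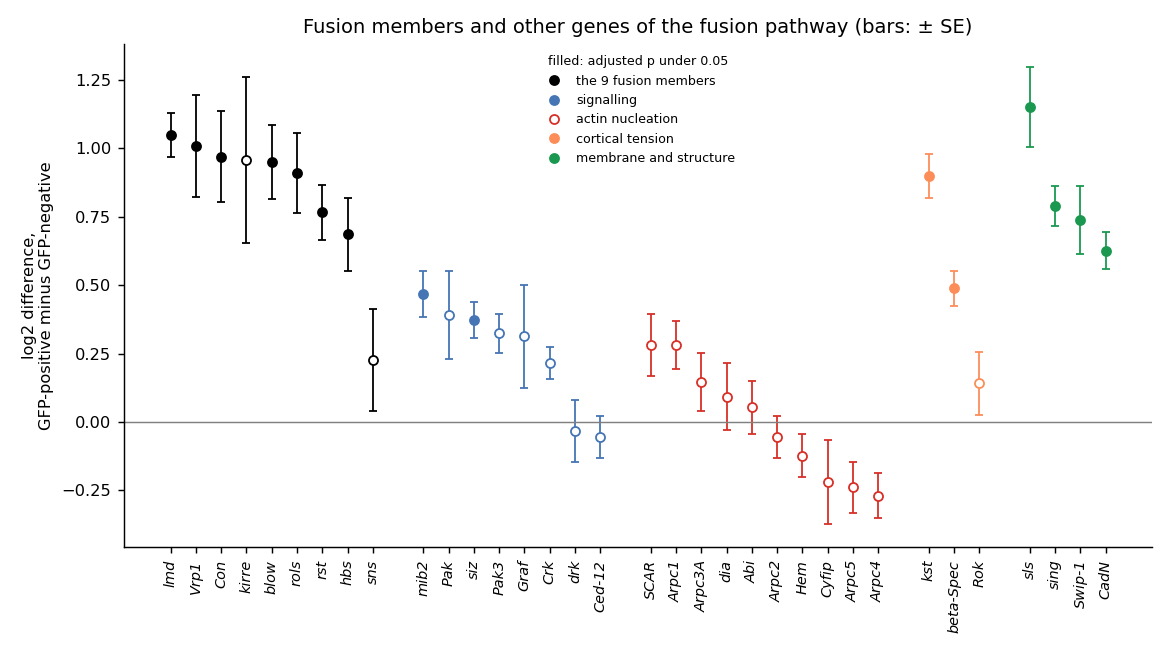
Log2 difference (y axis, GFP-positive minus GFP-negative, bars ± SE, n = 3 per group) of the 9 fusion genes and of 25 other genes of the fusion pathway grouped by role (x axis), filled where the adjusted p is under 0.05. Filled points reach from 0.37 for siz to 1.15 for sls, and the 10 actin nucleation genes lie between -0.27 and 0.28 with none filled.

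The difference between the groups also moved with the length of genes. Spearman's rho across 7225 genes above background with a known span was 0.29, as a description, since genes are not independent replicates and share the arrays. Genes in the decile of shortest annotated spans had a median of -0.15 and those in the decile of longest spans 0.22. Of the 9 fusion genes 6 belong to that longest decile: kirre (394 kb), Con (142 kb), sns (57.6 kb), rols (56.6 kb), hbs (30.7 kb) and rst (23.4 kb). Vrp1 spans 16.5 kb, blow 6.59 kb and lmd 5.49 kb, in deciles with medians of 0.13, 0.08 and 0.08.

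After an adjustment of each array for gene span, 3 of the 9 fusion genes passed, namely lmd (1.00, adjusted p = 0.0014), blow (0.87, adjusted p = 0.022) and rst (0.57, adjusted p = 0.029). The median of the 9 genes was then 0.69. Con went to 0.72 (adjusted p = 0.097), Vrp1 to 0.83 (adjusted p = 0.096), rols to 0.69 (adjusted p = 0.080), hbs to 0.49 (adjusted p = 0.177), kirre to 0.68 (adjusted p = 0.403) and sns to 0.01 (adjusted p = 0.993). Of the other pathway genes 4 passed after the adjustment, kst, sing, CadN and sls. The share of span in these differences was not tested beyond this adjustment.

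**Figure D4:**
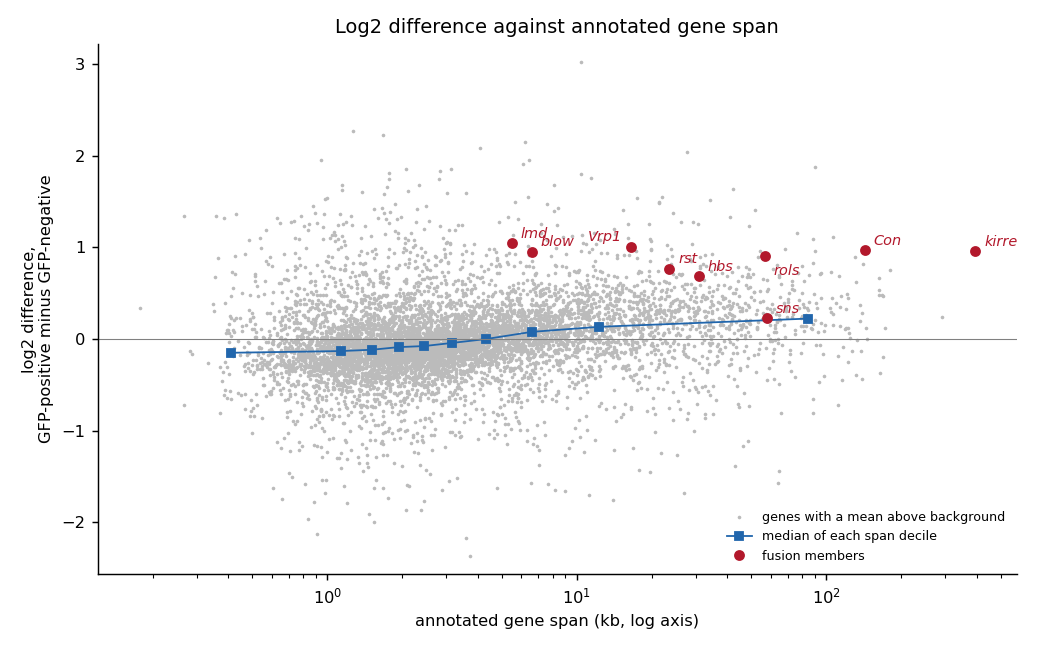
Log2 difference (y axis, GFP-positive minus GFP-negative) against annotated gene span (x axis, kb, log axis) for genes with a mean above background (grey), the median of each span decile (blue squares, from -0.15 to 0.22, placed at the geometric centre of the decile) and the 9 fusion genes (red). The fusion genes other than sns lie at 0.69 to 1.05.

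Genes whose pattern over the 6 arrays was most like that of lmd were found by the root mean square difference of the log2 signals, each gene centred on its own mean, among 7245 other genes above background. The nearest were so, a Six-family homeobox gene (0.079), CG32813 (0.085), ewg, the transcription factor Erect wing (0.088), teq, the protease Tequila (0.093), and Hph, the HIF prolyl hydroxylase (0.095). Their log2 differences, which this choice partly fixes, were 0.91, 1.03, 0.94, 0.88 and 0.93. The fusion gene nearest to lmd was rols, at rank 14 (0.135), followed by rst at rank 30 and blow at rank 32, while sns stood at rank 1199. For kirre the nearest were CG6770 (0.147), CG15878 (0.153), CG8563 (0.159), CG3513 (0.180) and Ae2, an anion exchanger gene (0.183). Con came next at rank 6 (0.184). The ranks of fusion genes also follow in part from the size of their group differences, so they add no separate support.

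Markers of other cells were read on the same arrays. For scale, 2.22% of the 7246 genes above background rose and 1.42% fell. Among those genes the GFP-positive arrays all lay above the GFP-negative ones in 11.5% and all lay below in 14.1%. Founder identity factors had a median difference of 0.31 over 14 genes, of which kn, the COE-family factor Knot, rose (0.74 ± 0.12, adjusted p = 0.021), while Kr had a difference of 0.23 ± 0.14 (adjusted p = 0.504) and Dr one of 0.03 ± 0.08 (adjusted p = 0.918). In 5 of the 14 genes, kn among them, the GFP-positive arrays all lay above the GFP-negative ones, and in 0 they all lay below. The list's mean log2 signal was 4.76 to 5.16 on GFP-positive and 4.46 to 4.74 on GFP-negative arrays. All 5 measured pan-mesodermal genes were higher without overlap, at 6.77 to 6.88 against 6.38 to 6.49 for the list's mean signal. Of them 1, the differentiation inhibitor gene Him, rose (0.56 ± 0.08, adjusted p = 0.013). The others did not pass: htl (0.52 ± 0.14, adjusted p = 0.118), zfh1 (0.31 ± 0.16, adjusted p = 0.428), twi (0.28 ± 0.11, adjusted p = 0.303) and sna (0.21 ± 0.05, adjusted p = 0.081). In zfh1 the groups were only 0.009 apart. Visceral muscle markers, which share fusion genes with somatic muscle, gave 2 rises of 6, bap (0.42 ± 0.08, adjusted p = 0.035) and mib2, with mean signals of 5.94 to 6.13 against 5.63 to 5.83. Of 12 listed cardiac markers 11 were measured and the other is not analysed here. Him, the gene already counted among the pan-mesodermal ones, rose and 0 fell. The genes tup, mid and lbe also stand on the founder list. In 2 cardiac genes, Him and tup (0.45 ± 0.13, adjusted p = 0.134), the GFP-positive arrays all lay above the GFP-negative ones. In 4 they all lay below: the GATA factor gene pnr (-0.29 ± 0.13, adjusted p = 0.354) and the T-box genes Doc1 (-0.21 ± 0.09, adjusted p = 0.332), Doc2 (-0.42 ± 0.13, adjusted p = 0.164) and Doc3 (-0.36 ± 0.09, adjusted p = 0.082). The cardiac list had a median difference of 0.03, with 6 genes higher and 5 lower, and mean signals of 5.04 to 5.16 against 4.57 to 5.13. Only 9 of the 11 genes had a mean above background. The largest differences were those of the dim genes Hand (1.38 ± 0.90, adjusted p = 0.560) and lbe (0.82 ± 0.69, adjusted p = 0.670), which enter these list means. Hand had a mean of 1.79 over all arrays, and lbe was below background in both groups. Markers of blood cells, neurons, epidermis and trachea gave 0 calls in 8, 6, 8 and 4 genes, with median differences of 0.26, 0.33, 0.19 and -0.10. The GFP-positive arrays all lay above the GFP-negative ones in 3 of 6 visceral, 2 of 6 neuron and 1 of 8 epidermis markers. In 0 genes of these 3 lists did they all lie below. Of 4 trachea markers they all lay above in 0 and below in 1. Hemocyte markers had mean signals of 4.73 to 5.03 on GFP-positive and 4.46 to 4.94 on GFP-negative arrays, and Hml and eater were below background in both groups. In 3 hemocyte markers the GFP-positive arrays all lay above the GFP-negative ones, namely Pxn (0.60 ± 0.15, adjusted p = 0.081), srp (0.43 ± 0.12, adjusted p = 0.110) and ush (0.22 ± 0.09, adjusted p = 0.324). They all lay below in gcm (-0.17 ± 0.07, adjusted p = 0.335). Neuron markers read 3.75 to 4.19 against 3.32 to 3.66, with nSyb below background. Epidermis markers read 5.92 to 6.32 against 5.72 to 6.09, and trachea markers 5.94 to 6.03 against 6.04 to 6.19. The part of any of these cells in the fusion gene differences was not tested.

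The control probe sets for labelled bacterial transcripts averaged 8.88 to 9.26 on GFP-positive and 8.06 to 8.93 on GFP-negative arrays, with GFP-negative replicate 1 the lowest. The difference between the 3' and 5' ends of actin, a measure of RNA integrity, was 1.22 to 1.48 and 1.28 to 1.36. For eIF-4a it was 2.13 to 2.19 on GFP-positive and 2.11 to 2.45 on GFP-negative arrays. The middle probe set of 18S rRNA read 7.57 and 7.82 on replicate 3 of the respective groups and 5.05 to 6.10 on the other 4 arrays. Array medians lay between 3.71 and 3.73.

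**Figure D5:**
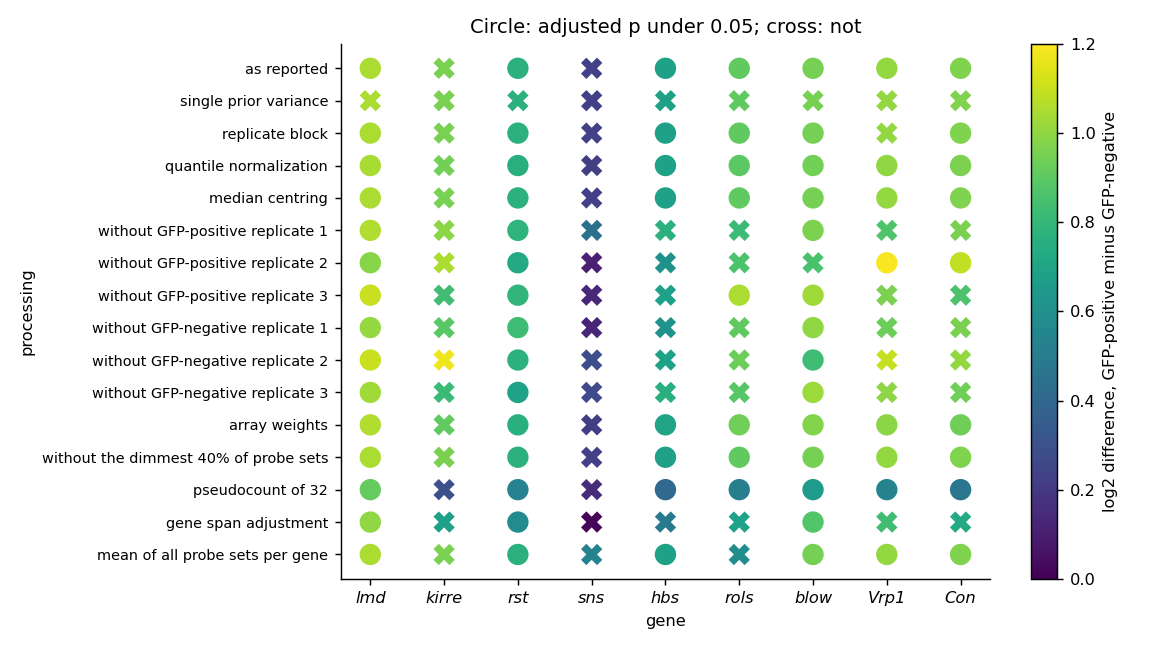
The 9 fusion genes (x axis) under the reported fit and 15 alternatives (y axis), coloured by log2 difference (GFP-positive minus GFP-negative), with circles where the adjusted p is under 0.05 and crosses where it is not. The column of lmd holds 1 cross, for the single prior variance, and those of kirre and sns hold crosses throughout.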

How the data were processed

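The deposited values are log2 signals, 1 for each probe set on each of 6 arrays. The submitters' processing notes name the affy package; how the authors corrected background, scaled arrays and summarised probes is not given in the sources used here. That the base is 2 was inferred from the range of the values. No rescaling was applied here. The deposited arrays already had medians of 3.71 to 3.73, so shifts common to nearly all genes may be hidden. The number of arrays limits precision. Of 14010 probe sets 44 controls were left out. The platform table gave 12443 of the rest 1 gene, 327 several and 1196 none. Of those with 1 gene, 12394 matched a RefSeq table (Release 6 assembly), which supplied gene spans.

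GFP-positive minus GFP-negative was tested in limma (version 3.58.1, R 4.3.3; eBayes with trend and robust options, 2-sided). The code was run on simulated data of independent normal values whose spread followed the mean level. The reported fit assumes such a spread, so that run cannot tell whether the calls in these data hold. Members, gene lists, the fit and the alternatives were chosen with earlier results of these data known. The rule for naming took all members, pathway genes that passed or, in a role with fewer than 2 calls, those with the largest differences, and for marker lists with fewer than 2 calls the brightest genes, not all of which are printed. Outside it, Arpc4, some of the markers below background and some of those whose groups did not overlap were named after their values were seen. Other such markers are not named. A planned promoter motif search was not run. Replicate numbers are shared between groups. Deviations of same-numbered arrays from their group means correlated at 0.06, 0.01 and 0.02, and the reported fit did not take them as pairs. These correlations do not exclude pairs, and the 18S rRNA probe set stood high on replicate 3 of both groups. A fit with replicate number as a block is among the alternatives.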

Additional observations from a re-analysis of the deposited data

How the results depend on the processing

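Every alternative kept the direction of all 9 fusion genes, and none called a fusion gene or another pathway gene lower. With the single prior variance 0 probe sets, 0 fusion genes and 0 other pathway genes passed. With 1 array left out the fits called 102 to 189 probe sets, against 340 with all arrays, 3 to 4 fusion genes, against 7, and 5 to 6 other pathway genes, against 8; these are counts per fit, and Pak3, not called with all arrays, passed in 1 of them. The gene span adjustment gave 130 calls, 3 fusion genes with a median of 0.69, and 4 other pathway genes. Restricted to the same genes but without the adjustment, an alternative added after seeing the data, the counts were 290 calls and 7 fusion genes. The pseudocount of 32 compressed the median of the fusion genes to 0.51 and that of the other pathway genes to 0.185, as it does by construction. Without the dimmest 40% of probe sets 655 passed, with 7 fusion genes among them. With replicate number as a block 437 probe sets and 6 fusion genes passed, Vrp1 being lost. Quantile normalization, median centring and array weights each left 7 fusion genes, and the mean of all probe sets left 6. Signal near background limits kirre and 5 probe sets of sns.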
